A study of Mus musculus with 7 samples.

Results

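The nuclei described here were taken as excitatory neurons of layer 4 of the mouse primary visual cortex (V1) by their markers, 322 of 32335 nuclei profiled by single-nucleus RNA-Seq (snRNA-Seq). They were chosen by their own transcripts. The label was set beside other genes, whose lists were drawn up with earlier results of these data known. A nucleus was kept when it held more than 200 unique molecular identifiers (UMIs, each standing for 1 captured RNA molecule) outside the viral columns. It was called a layer 4 nucleus when Gad1 and Gad2 were at 0, Rorb had at least 1 UMI, Foxp2, Syt6 and Rprm were at 0, and Rorb, Rspo1, Coch, Whrn, Endou and Scnn1a together had at least 3 UMIs. Of 47348 barcodes, 32335 passed the limit on UMIs, 26837 of these held no Gad1 or Gad2 UMI, 1711 of those held a Rorb UMI, 1602 remained after the layer 6 genes were excluded, and 322 reached 3 marker UMIs.

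The study screened adeno-associated viruses (AAV9) that each carried 1 of 287 gene regulatory elements (GREs) in front of a reporter, with 3 barcodes per GRE, for expression in somatostatin interneurons. All nuclei analysed here came from 1 deposited sample, the V1 of male C57BL/6J mice of 6 to 10 weeks that had received the pooled SST PESCA AAV9 library, and no uninjected cortex was analysed. The nuclei were captured in 10 inDrops libraries, 1-1 to 1-5 (library set 1) and 2-1 to 2-5 (library set 2), and the study's methods describe 5 libraries per animal, although the labels do not tie a library to an animal. With 1 sample there was no replicate of any condition and no test was made, so values are given for pooled nuclei with exact 95% intervals for counting error alone, and for each library.

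Layer 4 is the main target of thalamic axons in primary sensory cortex, and most of its excitatory neurons are small cells that pass sensory input to the layers above. The nuclear receptor RORβ, product of Rorb, marks these neurons and takes part in the grouping of thalamic axons and their target cells during development. Most cortical excitatory neurons load vesicles with the transporter encoded by Slc17a7, while Slc17a6 encodes the transporter that prevails in the thalamus.

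The share of layer 4 nuclei was 0.996% of kept nuclei (95% binomial interval 0.890 to 1.11). Over the 10 libraries it ran from 0.626% in library 1-2 over a median of 1.02% to 1.47% in library 2-1 (SD 0.307 percentage points, n = 10 libraries), which is 22 to 42 nuclei a library. Library set 1 held 136 layer 4 nuclei, 0.770% (0.647 to 0.911), and library set 2 held 186, 1.27% (1.09 to 1.46). The intervals of the sets did not overlap, and depth moved with the share, since the median kept nucleus held 646.5 UMIs in set 1 and 802 in set 2. Among nuclei of 800 to 2000 UMIs the shares were 1.32% (1.0503 to 1.6301) in set 1 and 1.69% (1.38 to 2.04) in set 2. These intervals overlapped, but they rest on fewer layer 4 nuclei, 83 and 105, and are wider. The part of depth in the difference between the sets was not tested. The need for 3 marker UMIs favours deep nuclei, and the median layer 4 nucleus held 1091 UMIs against 712 in all kept nuclei and 1019 in the other excitatory nuclei defined below.

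**Figure D1:**
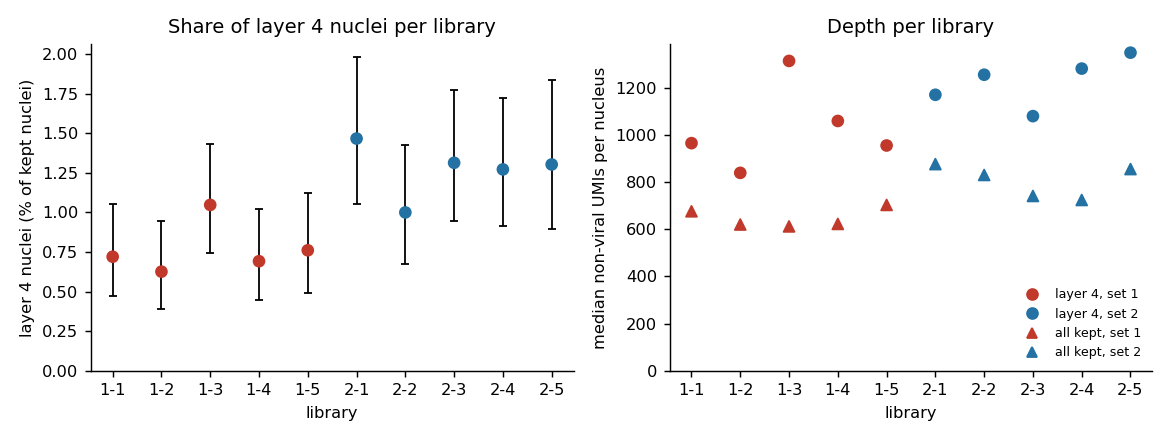
Left, the share of layer 4 nuclei among kept nuclei in each of the 10 libraries (percent, bars are exact 95% binomial intervals, red for library set 1 and blue for set 2). Right, the median non-viral UMIs per layer 4 nucleus (circles) and per kept nucleus (triangles); shares ran from 0.626% to 1.47%, and layer 4 nuclei were the deeper nuclei in every library.

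The libraries held between 2496224 and 3041931 UMIs each over kept nuclei, and the layer 4 nuclei 435595 UMIs in all. Of 25866 barcode names among kept nuclei, 5476 occurred in more than 1 library, as did the names of 106 layer 4 nuclei, but no 2 kept nuclei had identical counts. No caller of doublets was run, and no nucleus was removed as one.

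Among the genes that chose the nuclei, Rorb gave 708 UMIs, 16.3 per 10000 non-viral UMIs, the unit of all levels below. Coch, an extracellular matrix protein, was seen in 160 of the 322 nuclei (49.7%), Whrn, the scaffold protein whirlin, in 80 (24.8%), Rspo1, a secreted enhancer of Wnt signalling, in 44 (13.7%), Endou, an endoribonuclease, in 31 (9.63%), and Scnn1a, a sodium channel subunit, in 23 (7.14%). No layer 4 nucleus held all 6 markers: 172 held 2 of them, 68 held 3 and 10 held 4, and in 72 nuclei Rorb was the only marker. These values restate the rule and are a description.

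The limit of 3 UMIs cut through a graded distribution. Inside it, 164 nuclei had exactly 3 marker UMIs, 81 had 4 and 77 had 5 or more, with up to 11. Just outside it, 396 nuclei met every other part of the rule with 2 marker UMIs and 884 with 1. The summed level of 11 further genes linked to layer 4 that the rule does not use (Cux1, Cux2, Unc5d, Kcnh5, Il1rapl2, Brinp3, Ctxn3, Plcxd2, Thsd7a, Btbd3 and Zmat4) was 20.7 per 10000 at 3 marker UMIs (Poisson interval 18.7 to 22.8), 19.5 (16.9 to 22.5) at 4 and 20.6 (18.3 to 23.2) at 5 or more. It was 16.5 (15.4 to 17.8) in the nuclei with 2 marker UMIs, 15.4 (14.6 to 16.3) in those with 1 and 10.2 (10.1 to 10.4) in other excitatory nuclei. The intervals of the sum overlapped in the 3 groups past the limit, although single genes varied (Cux1 was at 2.83, 2.14 to 3.67, with 3 marker UMIs and at 1.02, 0.487 to 1.87, with 4). The sums of nuclei just short of the limit lay between them and the other excitatory nuclei. Unlike the other excitatory nuclei, those nuclei needed no UMI of an excitatory gene. A list of astrocyte genes stood at 33.8 per 10000 with 2 marker UMIs and 37.3 with 1, against 15.6 in other excitatory nuclei. Past the limit that list was at 29.4, 15.65 and 34.7. The part of astrocytes in the layer 4 sums was not tested. A further 211 nuclei had 3 or more marker UMIs without Rorb, and their level of the 11 genes was 18.5 (16.8 to 20.3).

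**Figure D2:**
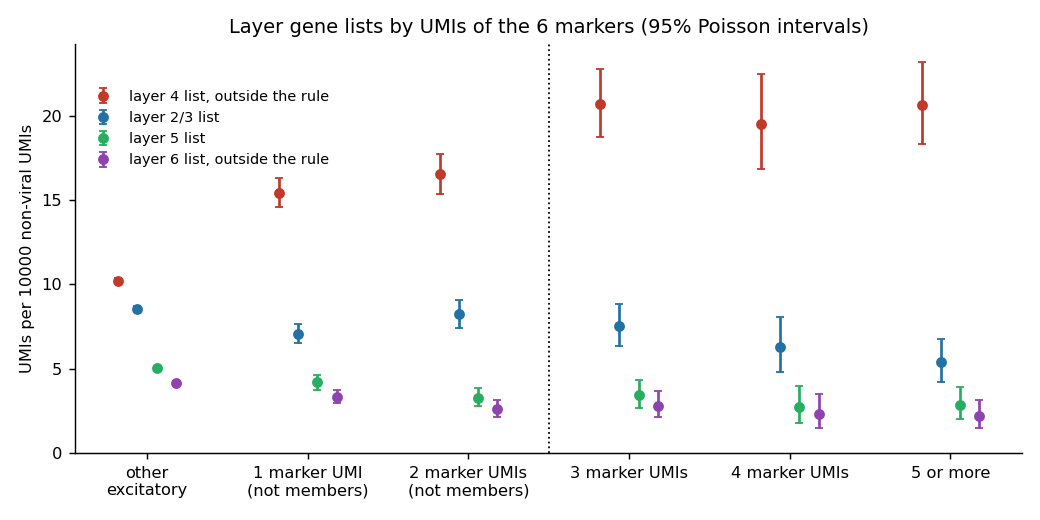
Summed level of 4 layer gene lists (UMIs per 10000 non-viral UMIs, points with 95% Poisson intervals) in other excitatory nuclei and in nuclei that meet the rest of the rule with 1, 2, 3, 4 and 5 or more marker UMIs. The dotted line is the limit of the rule; the layer 4 list (red) lies near 20 in all 3 groups past the line and at 16.5 and 15.4 before it.

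The comparison group of other excitatory nuclei was every other kept nucleus without Gad1 or Gad2 and with at least 2 UMIs of 6 excitatory genes, among them Slc17a7, Neurod6, Sv2b, Arpp21 and Camk2a (12116 nuclei, 13562373 UMIs). It cannot be free of layer 4 cells, since 882 of its nuclei held a Rorb UMI. Of the layer 4 nuclei, 245 of 322 (76.1%) also had 2 UMIs of those 6 genes, and 35 had none. Nuclei of other layers were taken by markers of layer 2/3 (3396 nuclei), layer 5 (1618) and layer 6 (406). These layer rules asked for no excitatory gene. A list of 10 excitatory genes summed to 58.1, 42 and 53.1 per 10000 in the 3 layer groups, against 62.8 in other excitatory nuclei. Oligodendrocyte genes were at 3.14, 11.8 and 2.44, against 3.76. Vascular genes were at 3.63 and 3.23 in the layer 2/3 and 5 groups, against 1.33. The part of other cell types in the layer comparisons was not tested. Of the layer 4 nuclei, 68 also met the layer 2/3 rule and 29 the layer 5 rule.

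Some of the nuclei carried astrocyte transcripts. In 16 of 322 (4.97%, 2.87 to 7.94) there were 2 or more UMIs of Slc1a3, Aqp4, Gja1, Aldoc and Gfap, against 377 other excitatory nuclei (3.11%, 2.81 to 3.44), and 9 of the 16 had Rorb as their only marker. These 16 nuclei held 98.5% of the Aqp4 UMIs of all 322 and 91.2% of the UMIs of the 5 genes. Their level of the 11 layer 4 genes was 8.35 (5.03 to 13.1), against 21.1 (19.7 to 22.5) in the remaining 306, and Plcxd2 was at 0 UMIs in them. The data thus go against the layer 4 label for these 16 as a group, but the group was mixed. Leaving them out took the UMIs of the 11 genes from 152 to 150 in nuclei with Rorb alone, and the level from 18.3 to 21.5. In nuclei with a second marker it took the UMIs from 736 to 719 and the level from 20.87 to 20.97, so the low level lay with the nuclei with Rorb alone. All 16 were set aside in a second pass over every comparison of genes with the other excitatory nuclei.

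The layer 4 list stood at about double its level in other excitatory nuclei. It was drawn up with earlier results of these data known, so it is no independent check of the label. The summed level of the list ran from 15.65 over a median of 21.23 to 24.38 in the 10 libraries, and in other excitatory nuclei from 9.67 over 10.1 to 11.0. The libraries did not overlap. The ratio of the pooled levels was 2.00, with 1.92 in library set 1 and 2.04 in set 2. Of its 11 genes 10 were measured (at least 100 UMIs over both groups), all 10 were higher in layer 4 nuclei, and their median ratio was 1.74 against 0.951 over all 10843 genes measured. A gene is counted as past the fold below when its pooled ratio is at least 1.5 either way and it lies on that side of 1 in all 10 libraries. Of the genes measured 0.314% were past it on the higher side and 2.16% on the lower side, 2.47% in all, and of the layer 4 list 1 was, Plcxd2.

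Plcxd2, which encodes a protein with a phospholipase C domain, had 218 UMIs in layer 4 nuclei. Its level ran from 3.48 over a median of 5.12 to 7.63 in the libraries, against 1.58 over 1.82 to 2.22 in other excitatory nuclei, a ratio of 2.72 (2.36 to 3.13). Every library of layer 4 nuclei lay above every library of the comparison group. The zinc finger gene Zmat4 had a ratio of 2.36 (1.97 to 2.81) and was higher in 8 of 10 libraries, and Btbd3, which takes part in orienting dendrites of layer 4 neurons toward thalamic axons, a ratio of 2.22 (1.67 to 2.91) and was higher in 9.

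The upper-layer transcription factors Cux1 and Cux2 had ratios of 1.61 (1.29 to 1.98) and 1.65 (1.26 to 2.12), with 8 and 7 of 10 libraries higher. Unc5d, a netrin receptor, had a ratio of 1.70 (1.42 to 2.01) and Brinp3 1.73 (1.46 to 2.04). These ratios hold for the pooled nuclei and not for each library. Il1rapl2, with 10 UMIs, Kcnh5, with 7, Ctxn3, with 6, and Thsd7a, with 3, were too sparse for a pattern over libraries.

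The summed levels of the lists of other layers were below those of other excitatory nuclei. The layer 2/3 list (Otof, Rasgrf2, Calb1, Wfs1, Stard8 and Lamp5) summed to 6.57 in layer 4 nuclei and 8.55 in other excitatory nuclei, a ratio of 0.768, with 5 of 5 measured genes lower and none past the fold in all libraries. The layer 5 list (Deptor, Etv1, Parm1, Fezf2, Bcl11b, Bcl6 and Hsd11b1) had a ratio of sums of 0.611 and 1 of 7 genes past the fold on the lower side. Of its members, Deptor had a ratio of 1.12 (0.796 to 1.54) and Hsd11b1 one of 1.90 (0.933 to 3.49), so the list did not move as a whole.

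Bcl11b, which encodes the transcription factor CTIP2 of deep-layer projection neurons, was the layer 5 gene past the fold. It had 4 UMIs in all layer 4 nuclei, and its level in their libraries ran from 0 over a median of 0 to 0.363, against 0.836 to 1.22 in other excitatory nuclei. The groups did not overlap, and the level was 10.7-fold lower (ratio 0.0935, 0.0254 to 0.240). Parm1 had a ratio of 0.442 (0.283 to 0.661), Fezf2, the selector gene of subcerebral projection neurons, 0.577 (0.346 to 0.905), and Bcl6 0.415 (0.151 to 0.911).

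Of the layer 6 genes that the rule does not use, 6 were measured and all 6 were lower, 2 of them past the fold. Tle4, a corepressor of corticothalamic neurons, was 3.69-fold lower (ratio 0.271, 0.123 to 0.516) and below in 10 of 10 libraries. Ntsr1, the neurotensin receptor used to mark corticothalamic cells, had 2 UMIs and a ratio of 0.249 (0.0300 to 0.909), and Ctgf, a gene of the deepest layer, 2 UMIs and a ratio of 0.0743 (0.00898 to 0.269). Tbr1, a factor that early-born neurons use, had a ratio of 0.973 (0.783 to 1.196). The rule excludes nuclei with Foxp2, Syt6 or Rprm, so these levels are not independent of the choice of nuclei.

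Genes for handling glutamate differed from the other excitatory nuclei in a mixed way. Slc17a6, the vesicular transporter VGLUT2, ran from 0.694 over a median of 2.21 to 3.97 in the libraries of layer 4 nuclei and from 0.795 over 0.977 to 1.24 in those of other excitatory nuclei. It was higher in 9 of 10 libraries, with a ratio of 2.37 (1.92 to 2.90), and 1.82 and 2.87 in library sets 1 and 2. At a fixed depth of 500 UMIs, with 31 shallower layer 4 nuclei and 1859 shallower other excitatory nuclei left out, a Slc17a6 UMI would be seen in 10.8% of layer 4 nuclei and 4.74% of other excitatory nuclei. Without thinning, the shares were 20.2% and 8.39%. The endothelial gene Cldn5, which neurons lack, was seen in 0.311% and 0.404% of the same nuclei without thinning, at median depths of 1091 and 1019 UMIs.

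Slc17a7, the transporter VGLUT1, had a ratio of 0.676 (0.576 to 0.789), but it helped choose the comparison nuclei, which fixes the direction in part. Against nuclei of the layer 2/3, 5 and 6 rules, which do not use it, its ratio was 1.005, 0.981 and 0.702. Those groups were not chosen as excitatory, and the part of other cell types in these ratios was not tested. The ratios thus do not show how Slc17a7 compares among excitatory neurons alone. Slc30a3, the zinc transporter ZnT3 of glutamatergic vesicles, had a ratio of 1.70 (1.47 to 1.96) with 9 of 10 libraries higher, and Nrgn, the calmodulin-binding protein neurogranin, 1.36 (1.29 to 1.44) with 9 higher.

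Outside the genes of the rule, 29 genes were past the fold on the higher side. The names below are the 15 with the highest ratios among genes of at least 200 UMIs over both groups. The highest of them was Fam19a2, which encodes a secreted chemokine-like protein. Its level ran from 1.08 over a median of 2.04 to 4.01 in the layer 4 libraries and from 0.672 over 0.783 to 1.02 in other excitatory nuclei, a ratio of 3.01 (2.44 to 3.67). The groups did not overlap, but the lowest layer 4 library was only 1.06 times the highest other library.

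Rgs4, which shortens signalling by G protein-coupled receptors, ran from 7.98 over 12.7 to 17.1 against 5.04 over 5.57 to 6.37, without overlap, a ratio of 2.27 (2.08 to 2.48). Camk4, a calmodulin-dependent kinase of the nucleus, had a ratio of 1.92 (1.66 to 2.21), also without overlap, and Camk2n1, an inhibitor of CaMKII, one of 1.86 (1.75 to 1.98) with 1075 UMIs. Rcan2, a regulator of calcineurin, had a ratio of 1.92 (1.54 to 2.36), Slc24a3, an exchanger of sodium for calcium and potassium, 1.97 (1.60 to 2.39), and the orphan receptor Gpr158 1.91 (1.70 to 2.13).

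Rora, whose product is a close relative of RORβ, was also among the 15. It ran from 2.08 over a median of 2.34 to 3.53 in the layer 4 libraries and from 1.08 over 1.36 to 1.62 in other excitatory nuclei, a ratio of 1.95 (1.59 to 2.35). The libraries did not overlap, although their distance was small next to their own range. Of the 18 nuclear receptor genes measured, Rora alone was past the fold on the higher side and Nr4a2 alone on the lower side (ratio 0.306, 0.132 to 0.607), with a list median of 0.916.

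Kcnab3, a subunit of voltage-gated potassium channels, had a ratio of 2.61 (1.98 to 3.38) and Nrsn1, a vesicle protein of neurites, 2.47 (2.16 to 2.80). Rims3, of the presynaptic active zone, had a ratio of 1.88 (1.48 to 2.35), Osbp2, an oxysterol-binding protein, 2.10 (1.66 to 2.61), Pacsin2, which bends membranes in endocytosis, 2.21 with 33 UMIs, and Dkkl1, a secreted protein related to Wnt antagonists, 2.37 (1.71 to 3.21). In 7 of the 15 genes (Fam19a2, Plcxd2, Kcnab3, Rgs4, Osbp2, Rora and Camk4) the libraries of the 2 groups did not overlap. The lowest layer 4 library was 1.01 times the highest other library for Kcnab3, 1.03 for Osbp2 and 1.06 for Camk4 and Fam19a2. It was 1.25 times for Rgs4, 1.29 for Rora and 1.57 for Plcxd2. The 15 were picked for high ratios in all libraries, and the share without overlap over all genes was not computed.

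Setting aside the nuclei of both groups with astrocyte transcripts left 24 of the 29 genes past the fold, and of the 15 only Pacsin2 was not, with a pooled ratio of 2.07. Limiting both groups to 800 to 2000 UMIs left 12 of the 29, with fewer nuclei in each library, and ended the call of Dkkl1, Gpr158, Kcnab3, Nrsn1, Pacsin2, Rcan2, Rims3 and Slc24a3. Keeping only members with a second marker left 14, and ended that of Dkkl1, Gpr158, Osbp2, Rcan2, Rims3 and Slc24a3. Plcxd2 had a ratio of 2.85 without the astrocyte-marked nuclei, and Fam19a2 3.04.

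**Figure D3:**
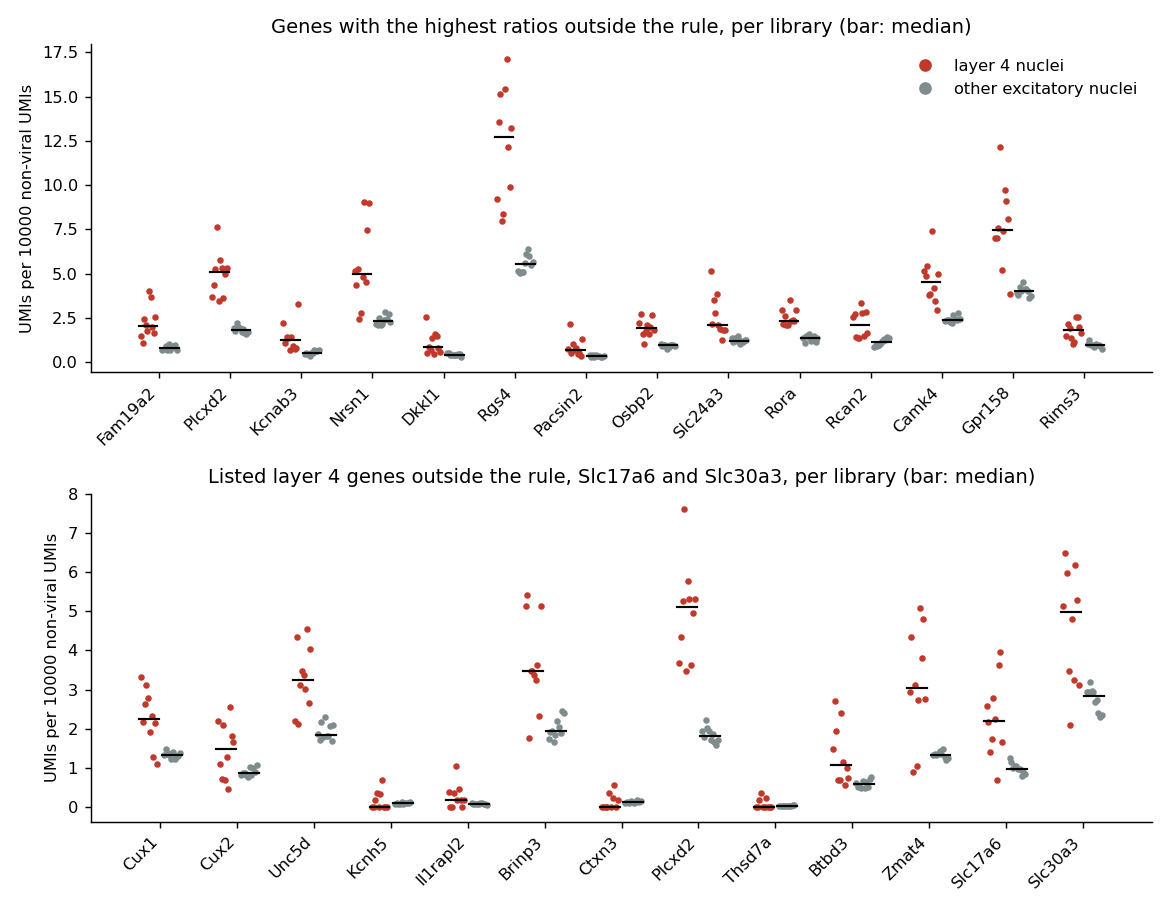
Level of single genes in the 10 libraries (UMIs per 10000 non-viral UMIs), with layer 4 nuclei in red, other excitatory nuclei in grey and the median of the libraries as a bar. Above are 14 of the 15 genes with the highest ratios outside the rule (Camk2n1, at 14.6 to 34.4, is beyond the axis), below the 11 listed layer 4 genes, Slc17a6 and Slc30a3; the libraries of Plcxd2 and Rgs4 stand apart between groups, while those of Cux2 and Pacsin2 overlap.

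Comparison with each of the layer groups, which were not chosen as excitatory, gave different profiles. Outside the genes of the layer 4 rule, 60 genes were past the fold on the higher side against layer 2/3 nuclei (background over all genes 2.82%, with 0.824% higher and 2.0% lower), 87 against layer 5 nuclei (3.99%, with 1.58% and 2.41%) and 92 against layer 6 nuclei (7.16%, with 3.84% and 3.32%). The number of genes measured fell from 7763 to 5692 and 2473 with the size of the comparison group, so the counts are not ranked. The layer 4 list had a ratio of sums of 1.94 against layer 2/3 nuclei, 2.77 against layer 5 and 5.15 against layer 6, and it was higher in 10 of 10 libraries each time.

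Cux1 and Cux2 did not part layer 4 from layer 2/3, with ratios of 1.06 and 0.960, but were 4.125-fold and 7.59-fold higher than in layer 5 nuclei. Unc5d had ratios of 1.30, 3.42 and 16.9 against layers 2/3, 5 and 6. Plcxd2 and Zmat4 had their lowest ratio against layer 5, at 2.24 and 2.06, and stood at 4.98 and 4.69 against layer 2/3. Slc17a6 had ratios of 2.09, 3.34 and 8.325 against the 3 layers.

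Only 2466 genes were measured in all 3 comparisons. Of these, 10 outside the rule were past the fold on the higher side each time, named here after their values were seen. Among them were Egr1, Fam19a2, Gpr158, Kcnh1, Nrn1, Nrsn1, Plcxd2, Rgs4 and Rora. The immediate early gene Egr1 had ratios of 2.08, 2.47 and 1.54 against layers 2/3, 5 and 6, but was not past the fold against other excitatory nuclei of 800 to 2000 UMIs, and Gpr158 ratios of 2.17, 2.41 and 3.62. The 3 comparisons share the layer 4 nuclei and are not independent.

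On the lower side, 8 of the 2466 genes were past the fold against all 3 layers. They too were named after their values were seen (Enc1, Igfbp4, Mgp, Neto2, Nfib, Nov, Nptx1 and Ntrk3). Nov, a secreted matrix protein, had 4 UMIs in layer 4 nuclei and was 14.2-fold lower than in other excitatory nuclei (ratio 0.0704, 0.0192 to 0.181). Igfbp4, a binding protein of insulin-like growth factors, was 8.05-fold lower with 8 UMIs, Ntrk3, the neurotrophin receptor TRKC, 2.52-fold lower with 90 UMIs, and Nfib, a transcription factor, 2.47-fold lower with 58 UMIs.

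Against other excitatory nuclei 231 genes outside the rule were past the fold on the lower side. A gene at 0 UMIs in the layer 4 nuclei is below in every library by construction, and 97 of the 231 were at 0. With at least 20 UMIs expected in layer 4 nuclei at the rate of the comparison group, 81 remained, of 5045 genes, beside 27 of the 29 higher genes. This limit was added after the counts were seen. Of the 231, 84 were past the fold among nuclei of 800 to 2000 UMIs and 157 among members with a second marker. Of the lower genes named as past the fold, Itm2a, Lyz2, Grik4, Grin3a, Htr1f, Kcnt1 and Sema3e were not among the 84, and Ntsr1, Grik4 and Grin3a not among the 157. Kcnt1 was also not past the fold without the astrocyte-marked nuclei.

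The 10 lowest ratios under the naming rule were all at 0 UMIs in the 322 nuclei. Penk, the precursor of enkephalin peptides, was at least 7.27-fold lower than in other excitatory nuclei (floor of 3 counts over the group), Rasl10a at least 6.42-fold, Bmp3, a growth factor, at least 6.38-fold, and Gadd45b, a stress-response gene, at least 6.03-fold. Mgp, Itm2a, Mgat4c, Lyz2, Qrfpr and Col1a1 were at least 4.51-fold, 4.03-fold, 3.33-fold, 3.32-fold, 3.18-fold and 3.09-fold lower. These bounds hold for that floor and are not the 95% intervals, which allow smaller differences. The intervals reached a ratio of 0.170 for Penk, 0.192 for Rasl10a and 0.400 for Col1a1. Of the 10 genes, only Penk had at least 20 UMIs expected in layer 4 nuclei. The bound for Lyz2 was 1.855-fold without library 2-4. Lyz2 is known from myeloid cells and Col1a1 and Mgp from stromal and vascular cells, and the part of such cells in these values was not tested.

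Glutamate receptors summed to a lower level in layer 4 nuclei. Their 22 listed genes ran from 35.2 over a median of 43.6 to 50.8 in the layer 4 libraries and from 52.7 over 54.8 to 59.0 in other excitatory nuclei, without overlap, with a ratio of sums of 0.768. Of 20 measured genes, 14 were lower, 5 of them past the fold on that side, and the median ratio was 0.754. Gria3, an AMPA receptor subunit, was 2.35-fold lower (ratio 0.426, 0.354 to 0.508), and the kainate receptor gene Grik3 had 5 UMIs and a ratio of 0.210 (0.0680 to 0.492). Grm8, a presynaptic metabotropic receptor, had 1 UMI and a ratio of 0.0601 (0.00152 to 0.336), Grik4 3 UMIs and a ratio of 0.198 (0.0408 to 0.583), and Grin3a 2 UMIs and a ratio of 0.188 (0.0226 to 0.683). Of these 5, only Gria3 and Grik3 had at least 20 UMIs expected in layer 4 nuclei.

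Receptors for modulators showed the same order, with a ratio of sums of 0.807, 12 of 17 measured genes lower and 2 past the fold on that side. Cnr1, the cannabinoid receptor CB1, ran from 0.481 over a median of 0.853 to 1.39 in the layer 4 libraries against 1.975 to 2.74 in other excitatory nuclei, without overlap, and was below in 10 of 10 libraries (ratio 0.384, 0.271 to 0.529). Htr1f, the serotonin receptor 1F, was at 0 UMIs, at least 1.48-fold lower. It counts as past the fold because its pooled ratio is 0, while its bound does not reach 1.5-fold. The call of Htr1f ended in each library set alone. Of the 14 GABA receptor genes none was past the fold, 7 had ratios above 1 and 7 below, and the list median was 1.01.

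Ion channels were divided. Of 32 potassium channel genes measured, 21 had ratios above 1, 2 were past the fold on the higher side and 1 on the lower, with a median of 1.12. Beside Kcnab3, Kcnh1, a voltage-gated channel, had a ratio of 1.505 (1.315 to 1.716), and was not past the fold in library set 1 alone. Kcnt1, the sodium-activated channel, had a ratio of 0.461 (0.257 to 0.763) and was below in 10 of 10 libraries, and Kcnn2, which carries the small calcium-activated current, had 0.248 (0.151 to 0.383) and was below in 9. The 24 sodium, calcium and HCN channel genes measured had a median ratio of 0.993, with 11 ratios above 1, 1 gene past the fold on the higher side and none on the lower side.

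The synaptic adhesion list had a ratio of sums of 1.22, with layer 4 libraries at 76.1 to 96.4 and other excitatory libraries at 65.4 to 72.1, without overlap, but the median of its 24 measured genes was 0.994, with 12 ratios above 1 and 1 gene past the fold, on the higher side. Cbln4, a secreted synaptic organiser, had a ratio of 1.97 (1.54 to 2.48) and was higher in 8 of 10 libraries, and the protocadherin gene Pcdh20 2.09 (1.64 to 2.65) and was higher in 9. Of 34 guidance genes, 2 were past the fold on the lower side, among them Sema3e, a semaphorin, with 5 UMIs and a ratio of 0.130 (0.0420 to 0.303).

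Among activity-regulated genes Egr1 was past the fold on the higher side, with a ratio of 1.67 (1.52 to 1.82), and Nr4a2 on the lower side. The call of Egr1 ended among nuclei of 800 to 2000 UMIs. The list of 17 measured genes had a median of 0.980, with 8 ratios above 1 and 9 below. Nptx2, a secreted pentraxin, had a ratio of 0.601 (0.414 to 0.842), and Btg2 0.660 (0.450 to 0.936).

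**Figure D4:**
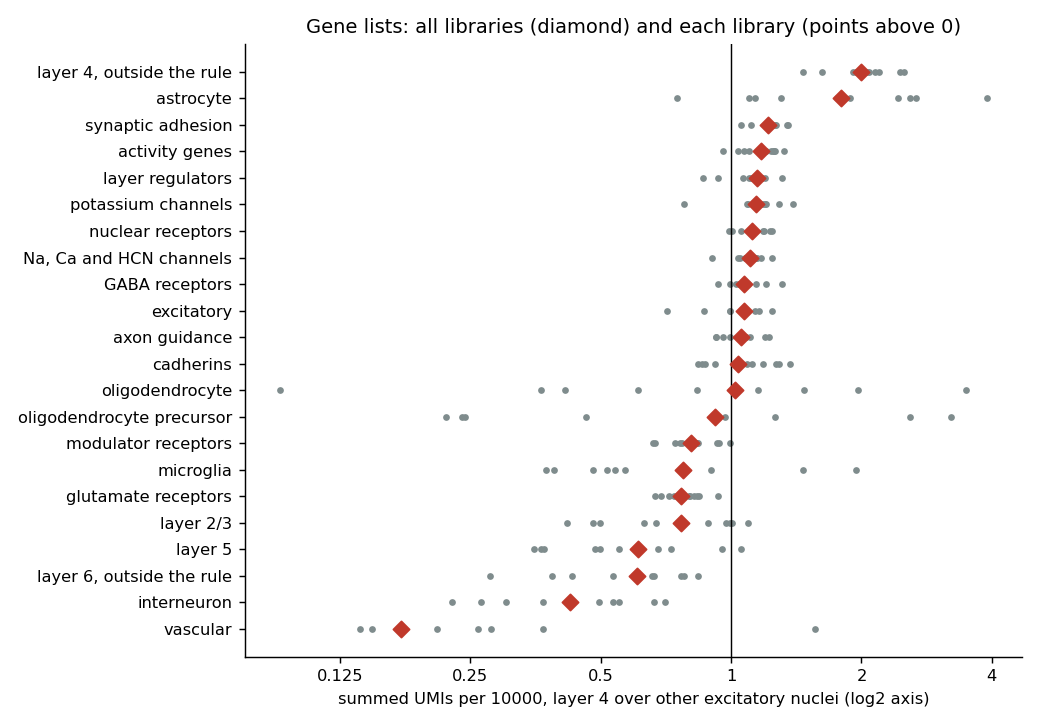
Ratio of summed levels, layer 4 over other excitatory nuclei, for 22 gene lists (log2 axis, diamonds for all libraries together, points for single libraries above 0). The layer 4 list leads at 2.00, the astrocyte list follows at 1.80 with single libraries spread widely, and glutamate receptors, layer 5, layer 6, interneuron and vascular lists lie below 1.

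Markers of other cell types were examined beside these results. The vascular list (Cldn5, Flt1, Pecam1, Vtn, Pdgfrb and Rgs5) had 10 UMIs in all layer 4 nuclei, a ratio of sums of 0.173. The interneuron list had a ratio of sums of 0.424, where nuclei with Gad1 or Gad2 were excluded from both groups. Cnr1, named above, gave 38 of its 63 UMIs in layer 4 nuclei and 3079 of 4628 in other excitatory nuclei. Oligodendrocyte genes had a ratio of sums of 1.02, with libraries from 0 to 13.2, and precursor and microglia genes 0.920 and 0.776. The astrocyte list, with Slc1a2, was at 28.0 against 15.6, a ratio of 1.80, and its layer 4 libraries ran from 12.7 to 68.5 against 13.2 to 17.6. None of its 6 genes was past the fold in all libraries. Aqp4, the water channel of astrocyte endfeet, had a ratio of 6.21 in all nuclei and 0.526 without the astrocyte-marked nuclei of both groups, and the glutamate transporter Slc1a3 2.99 and 0.717. Both genes were used to mark those nuclei, so the second values follow from the filter. The astrocyte list stood at 15.3 (14.2 to 16.6) in the 306 nuclei left.

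Against all other kept nuclei, which include interneurons and glia, 54 genes outside the rule were past the fold on the higher side and 919 on the lower side, where 0.454% and 7.11% of 13000 genes measured were, 7.56% in all. The layer 4 list had a ratio of sums of 2.21, with 3 of 10 genes past the fold. Genes per nucleus did not set these neurons apart from other excitatory nuclei, since at a fixed depth of 500 UMIs a layer 4 nucleus would show 417 genes (libraries 404 to 426) and another excitatory nucleus 415 (410 to 418).

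The promoters of genes with high ratios are shown because Rora and Rorb encode receptors that bind the core motif AGGTCA. RefSeq promoter windows (build GRCm38.p6, 250 bases before to 50 after the start) were found for 12 of the 15 genes with the highest ratios. The letters AGGTCA, or TGACCT for the other strand, occurred in a window of 3 of these 12 genes (25%) and of 18.1% of all 27025 symbols. None of the 8 listed layer 4 genes and none of the 4 rule genes with a window held them. The 3 windows follow, 5′ to 3′ on the strand of the gene, with this motif in capitals. The share was close to that of all promoters, and a match is no evidence of binding.
Dkkl1, chr7:45211834-45212133, minus strand: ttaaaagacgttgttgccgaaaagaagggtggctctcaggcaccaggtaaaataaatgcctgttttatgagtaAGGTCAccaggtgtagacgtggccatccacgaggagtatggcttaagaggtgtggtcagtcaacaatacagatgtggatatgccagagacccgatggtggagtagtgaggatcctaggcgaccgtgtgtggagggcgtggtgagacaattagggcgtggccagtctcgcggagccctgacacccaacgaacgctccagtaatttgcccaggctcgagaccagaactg
Pacsin2, chr15:83432801-83433100, minus strand: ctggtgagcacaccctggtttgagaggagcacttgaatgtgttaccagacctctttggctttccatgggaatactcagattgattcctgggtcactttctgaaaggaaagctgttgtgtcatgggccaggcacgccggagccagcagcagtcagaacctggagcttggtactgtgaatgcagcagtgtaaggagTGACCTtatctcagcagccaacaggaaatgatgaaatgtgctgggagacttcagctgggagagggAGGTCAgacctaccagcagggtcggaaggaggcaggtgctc
Slc24a3, chr2:145167525-145167824, plus strand: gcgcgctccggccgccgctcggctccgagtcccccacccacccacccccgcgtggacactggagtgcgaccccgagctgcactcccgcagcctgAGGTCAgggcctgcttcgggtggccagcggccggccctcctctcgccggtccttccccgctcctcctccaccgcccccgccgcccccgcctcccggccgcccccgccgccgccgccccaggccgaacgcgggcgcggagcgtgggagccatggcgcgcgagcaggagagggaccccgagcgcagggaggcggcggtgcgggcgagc

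Viral transcripts were also counted in the layer 4 nuclei. They held 4539 UMIs of GRE barcodes, a mean of 14.1 per nucleus (13.7 to 14.5) and a median of 4, against a mean of 18.2 (18.1 to 18.3) and a median of 6 in other excitatory nuclei. The ratio of means was 0.774, and over libraries it ran from 0.210 in library 1-2 over a median of 0.719 to 1.57 in library 1-5 (SD 0.374, n = 10 libraries), below 1 in 8 of 10. It was 0.867 in library set 1 and 0.723 in set 2. In library 1-5, 1 nucleus held 491 of the 877 viral UMIs (56.0%), and without that library the ratio was 0.694. Viral UMIs were found in 83.9% of layer 4 nuclei (79.4 to 87.7) and in 88.6% of other excitatory nuclei (88.05 to 89.19). The difference in the mean was thus smaller than the spread over libraries. Viral uptake and the activity of the GREs cannot be told apart in these counts.

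Over both library sets together the mean was highest in layer 2/3 nuclei, at 24.1 viral UMIs, and was 18.5 in layer 5 and 15.2 in layer 6 nuclei. The order was the same per 10000 non-viral UMIs, with 203 in layer 2/3, 145 in layer 5, 109 in layer 6 and 104 in layer 4 nuclei. The order was not the same in both library sets. Layer 2/3 nuclei had 28.97 viral UMIs against 18.40 in layer 5 nuclei in set 1, and 18.47 against 18.54 in set 2, where 1 nucleus held 6.31% of the layer 2/3 sum. Likewise, layer 4 nuclei had 17.65 viral UMIs against 13.85 in layer 6 nuclei in library set 1, and 11.49 against 16.29 in set 2.

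Of the 287 GREs, 186 had at least 300 UMIs over kept nuclei and were compared by their mean per nucleus plus 0.01. None was past the fold on the higher side in at least 8 of 10 libraries (0.0% of those compared), and 88 were past it on the lower side (47.3%). The median GRE had 14 UMIs in all layer 4 nuclei, so a library without a UMI counts as lower, and with nuclei holding a UMI counted in place of UMIs 30 were past the fold on that side. The count also depended on the value added to the means, with 17 GREs past the fold in all at 0.1, and was 64 when each GRE was taken as a share of viral UMIs. The median ratio was 0.682, with 147 ratios below 1. Of the 19 GREs with a ratio of at least 1.5, 12 had 50% or more of their layer 4 UMIs in a single nucleus. The highest were GRE266, with a ratio of 3.33, GRE163, with 2.76, and GRE254, with 2.75, where 1 nucleus held 79.0%, 90.0% and 94.7% of the UMIs.

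The GREs that the study ranked highest for somatostatin interneurons were seen in 1.86% to 7.14% of layer 4 nuclei. On average a layer 4 nucleus held UMIs of 5.14 of the 287 GREs, and another excitatory nucleus of 6.58. GRE44 was seen in 23 of 322 nuclei, 7.14% (4.58 to 10.5), against 7.26% of other excitatory nuclei. GRE80 was seen in 20 nuclei, 6.21% (3.84 to 9.43) against 7.81%, GRE22 in 9, 2.80% (1.29 to 5.24) against 4.94%, GRE19 in 7, 2.17% (0.878 to 4.43) against 2.86%, and GRE12 in 6, 1.86% (0.687 to 4.01) against 2.17%. For each of these 5 the share in other excitatory nuclei lay inside the interval of the layer 4 nuclei, although GRE19 and GRE80 were among the 88 past the fold in UMIs. The mean of GRE44 was 0.332 UMIs against 0.205, a ratio of 1.60, but only 4 of 10 libraries were higher and 87 of its 107 UMIs came from 1 of its 3 barcodes.

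The lowest ratios belonged to GRE94, GRE251 and GRE48. GRE94 had 3 UMIs in 3 layer 4 nuclei, 0.932% (0.193 to 2.70), against 1165 UMIs in 468 other excitatory nuclei, 3.86% (3.53 to 4.22), a ratio of means of 0.182, and all 3 of its barcodes were low, at 1, 2 and 0 UMIs against 337, 440 and 388. GRE251 was seen in 0 of 322 nuclei, which allows a share of nuclei with a UMI of up to 0.932% (exact interval up to 1.14%) and sets no limit on nuclei that express it, and in 202 other excitatory nuclei, 1.67% (1.45 to 1.91). GRE48 was seen in 2 nuclei, 0.621% (0.0753 to 2.23), against 2.42% (2.15 to 2.71). These 3 were chosen as the lowest of 186 with 0.01 added to each mean, and their order depends on that value, so their distance is a description.

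GRE94 is intergenic and lies 95.9 kb from the nearest protein-coding gene, Tex13c2. GRE48 overlaps an exon of Zc2hc1b. The sequence of GRE94 is printed because this element had the lowest ratio of the 186 with 0.01 added, although GRE251 had fewer UMIs in layer 4 nuclei. It comes from the reference genome GRCm38.p6 and holds neither AGGTCA nor TGACCT.
GRE94, chrX:42393501-42393800, plus strand: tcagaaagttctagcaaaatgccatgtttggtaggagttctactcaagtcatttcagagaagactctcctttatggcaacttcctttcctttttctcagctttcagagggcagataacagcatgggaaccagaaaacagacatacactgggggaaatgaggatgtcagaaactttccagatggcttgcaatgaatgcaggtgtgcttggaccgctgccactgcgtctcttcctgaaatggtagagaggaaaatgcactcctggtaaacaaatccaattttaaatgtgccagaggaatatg

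**Figure D5:**
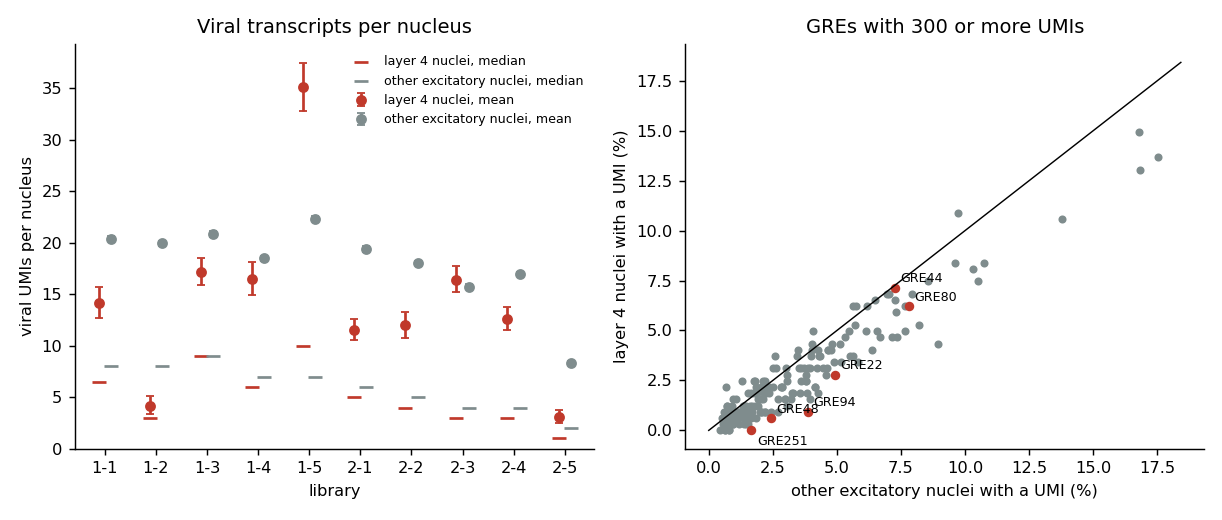
Left, viral UMIs per nucleus in each library as the mean with its 95% Poisson interval (circles) and the median (dashes), for layer 4 (red) and other excitatory nuclei (grey); the means of layer 4 nuclei ran from 3.06 to 35.1. Right, the percent of other excitatory (x axis) and of layer 4 nuclei (y axis) with a UMI of each of 186 GREs, with 6 of the named GREs in red and the line of equal shares; GRE94, GRE251 and GRE48 lie well under the line and GRE44 close to it.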

How the data were processed

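snRNA-Seq was analysed in 1 sample, 10 inDrops libraries of V1 nuclei, and 6 ATAC-Seq samples were not used here. The authors enriched viral transcripts by PCR, aligned reads with the inDrops pipeline to GRCm38 with a contig for each viral barcode, and counted viral barcodes from uniquely mapping reads with at most 1 mismatch. The authors deposited raw counts of UMIs, 1 row per barcode, with no scaling. A deposited table of 287 GREs gave coordinates and barcodes, 861 of the 1164 viral columns. Its columns of specificity, the authors' own comparisons, were not used.

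As in the study, a barcode was kept when its UMIs outside the viral columns exceeded 200. UMIs were summed over the nuclei of a group and library and divided by their non-viral UMIs. Genes needed at least 100 UMIs over both groups. Ratios carry exact conditional intervals, levels Poisson and shares binomial intervals, all 95% and for counting error only. A count of 0 was set to a floor of 3 counts for a bound, and the 95% interval of such a ratio reaches past that bound. Expected values at 500 UMIs came from hypergeometric thinning. No clustering and no doublet caller were run. Promoters are RefSeq windows (GRCm38.p6), with Fam19a2 matched as Tafa2. Named genes were the rule's genes, all layer and excitatory lists, the 4 genes farthest from a ratio of 1 in other lists, the 15 highest and 10 lowest ratios, and named GREs. The layer 4 marker rule was also varied in its UMI limits, its need for Rorb, the fold, the minimum of UMIs and the libraries, and further settings were added after the data were seen. Some further genes were named after their values were seen, as stated, and so were Gria3 and Mef2c. The members and lists were chosen with earlier results of these data known. The comparison of summed counts was tried on simulated Poisson counts, with changes planted only in genes of at least 100 UMIs expected in layer 4 nuclei. It therefore does not cover changes in sparser genes or spread beyond counting error. Numpy 2.4.6, scipy 1.17.1 and pandas 2.3.3 were used. Some genes and sequences are not reported here.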

Additional observations from a re-analysis of the deposited data

Results flagged for a closer look

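In 8 of 59 named genes with at least 20 UMIs, a single library lay far from the other 9. So it did in 1 of 5 other quantities. The cutoff flags about 1 group in 20 by chance for normal values of equal spread. The libraries held from 18460 to 62301 UMIs in layer 4 nuclei, so their counting error was not equal. The number of flags is a description. Library 1-5 had 35.08 viral UMIs per layer 4 nucleus against a median of 13.38 over libraries. In UMIs per 10000, the same library had 11.47 of Aqp4 (median 0.7225). Library 1-2, with the fewest layer 4 nuclei (22), had 2.167 of Pacsin2 (median 0.7154), 4.334 of Rspo1 (median 1.457), 5.417 of Whrn (median 2.418), 2.167 of Scnn1a (median 0.4316) and 7.042 of Slc17a7 (median 3.862). Library 2-2 had 2.546 of Neurod2, a transcription factor of excitatory neurons (median 1.049), and library 2-3 had 0 of Pcdh20 (median 1.802). The 303 viral columns outside the GRE table, which no comparison used, held 62 UMIs in layer 4 nuclei, 0.193 per nucleus against 0.213 in other excitatory nuclei.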

How the results depend on the processing

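The viral ratio stayed below 1 under each setting varied alone. It ran from 0.5636 among nuclei of 800 to 2000 UMIs to 0.9444 with 5 marker UMIs. Against all other kept nuclei it was 0.9047, with 1.046 in library set 1 and 0.8206 in set 2. Single astrocyte genes changed side without the astrocyte-marked nuclei, as the report gives. The share of layer 4 nuclei, 0.996%, was 2.221% with 2 marker UMIs, 0.2381% with 5, 1.648% with no need for Rorb, 1.418% among nuclei of more than 500 UMIs and 2.589% of excitatory nuclei alone. The 268 genes past the fold against other excitatory nuclei (34 higher, 234 lower) became 1005 with 5 marker UMIs (5 higher, 1000 lower), 844 and 897 in library sets 1 and 2 alone, where 5 libraries in place of 10 must share a side, 1180 with a minimum of 20 UMIs, 124 with a minimum of 500, and 144 by the geometric mean of library ratios. With at least 20 UMIs expected, a setting added after the data were seen, they were 112. The count against layers 2/3, 5 and 6 together, 22 with the genes of the rule, was 13 at a fold of 2. The 88 GREs were 17 with a pseudocount of 0.1 and 30 when nuclei were counted, the latter added after the data were seen. Beyond what their construction shows, the cause of these shifts was not tested. Leaving out each library in turn gave 0.9513% to 1.041% for the share, 297 to 344 genes, 0.6943 to 0.8228 for the viral ratio and 60 to 79 GREs. No paired analysis was possible by replicate number because the groups compared carry no replicate numbers of their own within the 1 sample. Only the ATAC-Seq samples not used here have more than 1 replicate. The comparison was paired by library instead. Both groups of nuclei come from the same 10 libraries of 1 sample and were compared within each library, with no test. Depth limits single genes: a gene at 0 UMIs in 435595 could still be present below the floor of 3 counts.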

Other observations

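Transcription factors linked to cortical layers were mixed in layer 4 nuclei. Of 27 measured genes, 1 was past the fold on the higher side and 6 on the lower side, with a median ratio of 0.981 against other excitatory nuclei. Mef2c, a factor of neuronal maturation, had 849 UMIs and a ratio of 1.56 (1.46 to 1.67), higher in 10 of 10 libraries, but it was not past the fold among nuclei of 800 to 2000 UMIs, among members with a second marker or in library set 1 alone. Nfia, of the same family as Nfib, had 6 UMIs and a ratio of 0.219 (0.0802 to 0.479), lower in 10 of 10, and was not past the fold among nuclei of 800 to 2000 UMIs. Of 17 cadherin and protocadherin genes, 1 was past the fold on the lower side, Cdh13, with 5 UMIs and a ratio of 0.232 (0.0752 to 0.545), and the list median was 0.899.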
